A study of Mus musculus with 4 samples.

Results

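The endoplasmic reticulum (ER) stress and folding genes described here are 35 genes listed by symbol, of 55450 genes in the files: chaperones, disulphide isomerases, degradation factors, stress sensors and the targets of those sensors. All 35 symbols were found. Ddit3 stands under 2 overlapping gene identifiers on the same strand, of which 1 is listed at 0 in every cell, so its values are those of the other. The RNA came from dissociated mouse testis, sequenced as single cells in droplets with a 3' kit that counts molecules by unique molecular identifiers (UMIs). The mice ate a high-fat diet (HFD; 2 libraries) or a normal diet (ND; 2 libraries), and the series compares the cell types of the testis between the diets. The labels used here give the tissue and the diet and nothing on strain, age, genotype, diet composition or duration. Nor do they say whether the libraries are separate mice, so p-values measure the spread between these libraries, which may be technical.

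The ER is where secreted and membrane proteins fold. BiP (Hspa5) and GRP94 (Hsp90b1) hold unfolded chains, calnexin and calreticulin bind their sugars, and protein disulphide isomerases form their disulphide bonds. When unfolded protein accumulates, the sensors IRE1 (Ern1), PERK (Eif2ak3) and ATF6 raise the genes for these chaperones and for degradation across the ER membrane, and PERK also slows translation and favours ATF4 and CHOP (Ddit3), which drive amino acid and stress genes. Male germ cells carry relatives of the lectins and isomerases, calmegin (Clgn), calsperin (Calr3) and Pdilt, which fold sperm surface proteins such as ADAM3.

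The ER stress element, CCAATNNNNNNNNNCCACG, is the sequence through which ATF6 acts on chaperone genes, and it is shown first because the chaperones that the results turn on, Hspa5 and Hsp90b1, hold it. RefSeq sequences of the GRCm38.p6 build, 250 bases upstream of each gene's start, were at hand for 30 of the 35 genes. On either strand the element stood in 8 of the 30 (26.7%), against 35 of 27025 genes (0.13%) in the whole table. Hspa5, Hsp90b1, Calr, Canx, Pdia6, Dnajc3, Creld2 and Syvn1 held it, and Hsp90b1 held it 2 times. Of these, only Hspa5 and Hsp90b1 were called in a cell class in the diet comparison below. Calr, Canx, Pdia6, Dnajc3, Creld2 and Syvn1 were called in no class, and the part of the element in the diet ratios was not tested. In the lines below the fixed letters of the element are in capitals, each sequence runs 5′ to 3′ along its gene, and an element on the other strand reads CGTGG, then ATTGG.
Hspa5, chr2:34772015-34772053, plus strand: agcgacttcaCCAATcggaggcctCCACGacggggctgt
Hsp90b1, chr10:86705523-86705666, minus strand: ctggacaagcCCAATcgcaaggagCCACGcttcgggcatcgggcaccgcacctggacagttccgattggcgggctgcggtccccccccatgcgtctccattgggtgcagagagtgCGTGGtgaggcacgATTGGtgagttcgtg
Calr, chr8:84847065-84847103, minus strand: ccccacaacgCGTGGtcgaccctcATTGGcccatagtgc
Canx, chr11:50325790-50325828, minus strand: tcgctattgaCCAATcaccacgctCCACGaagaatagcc
Pdia6, chr12:17266481-17266519, plus strand: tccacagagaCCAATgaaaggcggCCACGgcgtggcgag
Syvn1, chr19:6046522-6046560, plus strand: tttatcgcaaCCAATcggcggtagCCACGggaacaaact

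Calr3 and Pdilt, the germ-cell relatives with a sequence in the table, did not hold these letters in the window. For comparison with Calr, the 120 bases upstream of 1 of the 2 starts of Calr3 are printed without capitals.
Calr3, chr8:72443779-72443898, minus strand: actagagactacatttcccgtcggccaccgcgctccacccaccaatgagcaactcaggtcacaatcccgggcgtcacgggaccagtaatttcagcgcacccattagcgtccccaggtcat
The ATF4 response letters TGATGNAA stood in Asns, Chac1 and Herpud1, 3 of 30 genes (10%), against 3.91% of all genes. They are shown for Asns, which encodes asparagine synthetase and is the stress response target that the diet comparison turns on, again with the fixed letters in capitals.
Asns, chr6:7693215-7693242, minus strand: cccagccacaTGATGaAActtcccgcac
The core of the XBP1 element, TGACGTGG, was in 0 of the 30 and in 0.603% of all genes. The matches describe letters only, and the absence of a match says only that these letters are not in this window.

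After filtering, the libraries held between 13094 and 14429 cells and between 132008950 and 145040795 UMIs. Cells were clustered without the 35 genes and 53 other genes of the pathway, and clusters were named from marker lists, so that each class is named by likeness. The 9 classes with at least 50 cells in every library were tested. They ranged from fibroblast-like cells, with 54 to 75 per library, to pachytene-like and later spermatocytes, with 3122 to 4183. The largest cluster of that spermatocyte class, of 5293 cells, had 0 of its markers among its top 10 genes and a median of 3221 UMIs, against 23073 and 31517 in the clusters next in size. Pairs of libraries shared 42 to 65 cell barcodes. The Sertoli-like class carried the elongating spermatid markers at 71160 to 90778 counts per 1000000 UMIs (CPM), against 154033 to 165466 CPM in elongating spermatid-like cells, and the part of spermatid RNA in its values was not tested.

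Levels by cell class are given in CPM of the class's own UMI total, as the mean and range of the 4 libraries. They are a description, without a test. The general chaperones peaked early in meiosis. Hspa5 stood at 1845 CPM in early spermatocyte-like cells, with 1809 and 1774 CPM in HFD 1 and 2 and 1992 and 1804 CPM in ND 1 and 2. It was at 470 CPM (447 to 489) in pachytene-like and later spermatocytes, 140 CPM (128 to 153) in round spermatid-like cells and 88.3 CPM (78.0 to 101) in elongating spermatid-like cells. That is a 20.9-fold difference between the highest and the lowest class, and no library of 1 stage overlapped one of the next. Calr, calreticulin, went the same way from 2273 CPM (2081 to 2451) in early spermatocyte-like cells to 123 CPM (114 to 135) in elongating spermatid-like cells. Hsp90b1 went from 1225 CPM (1144 to 1317) to 93.1 CPM (78.0 to 110). In Leydig-like cells, the steroid-producing cells of the interstitium, Hspa5 was at 497 CPM (482 to 521), Hsp90b1 at 541 CPM (524 to 558) and Calr at 474 CPM (456 to 495). The 3 chaperones were thus 3.71, 2.26 and 4.79 times as high in early spermatocyte-like as in Leydig-like cells.

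Of the 35 genes, 10 had their highest mean in early spermatocyte-like cells. They include Canx, calnexin, at 356 CPM (342 to 373), Pdia6 at 653 CPM (589 to 763), Dnajc3, a BiP co-chaperone that also restrains PERK, at 289 CPM (272 to 305), and Hyou1, a BiP exchange factor, at 92.9 CPM (72.6 to 119). Dnajb11 and Dnajb9, J-domain partners of BiP, and Manf, a secreted folding factor, belong there too. Dnajb9 was nearly flat, with its highest class mean 1.87 times its lowest and the libraries of its 2 leading classes overlapping. The isomerases P4hb, Pdia3 and Pdia4 had their highest mean in spermatogonia-like cells, where Pdia3 and Pdia4 overlapped early spermatocyte-like cells. P4hb was there at 222 CPM (177 to 246) and overlapped its 213 CPM (191 to 246) in Leydig-like cells. In spermatids P4hb was at 3.10 CPM (2.78 to 3.24) in the round and 3.53 CPM (3.28 to 3.94) in the elongating class, and Pdia4 reached its lowest at 1.48 CPM (1.22 to 1.74).

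**Figure D1:**
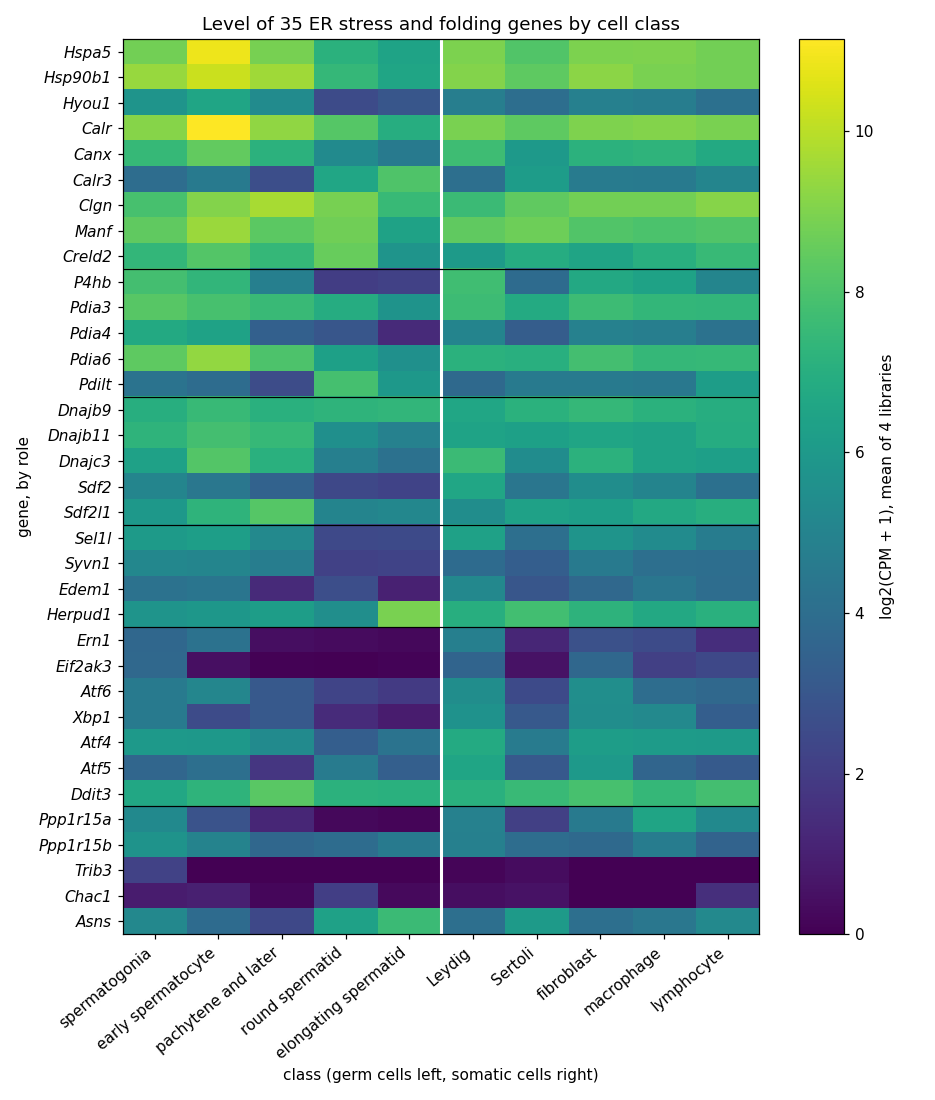
Mean level of the 35 genes, as log2(CPM + 1) of the 4 libraries, by cell class on the horizontal axis and by gene, grouped by role, on the vertical axis. The chaperone rows are brightest in early spermatocyte-like cells, the rows of Ern1 and Eif2ak3 are near 0 in spermatids, Calr3, Pdilt and Asns are brighter in both spermatid classes than in the pachytene class, and Herpud1 is brightest in the elongating class.

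The germ-cell relatives were ordered otherwise. Clgn peaked at 822 CPM (811 to 829) in pachytene-like and later spermatocytes and was at 462 CPM (454 to 467) in round and 183 CPM (171 to 194) in elongating spermatid-like cells. Pdilt was at 5.02 CPM (4.18 to 6.51) in pachytene-like and later spermatocytes and at 229 CPM (222 to 237) in round spermatid-like cells, a 45.7-fold difference, and then at 61.5 CPM (60.5 to 63.5) in the elongating class. Calr3 came last, from 5.44 CPM (4.33 to 6.80) through 97.2 CPM (94.6 to 100) to 268 CPM (249 to 286) over the same 3 classes. Over those classes Calr had the opposite order, with 626 CPM (613 to 641) in the pachytene, 299 CPM (295 to 301) in the round and 123 CPM in the elongating class. Sdf2l1, an ER stress-induced partner of BiP co-chaperones, peaked at 293 CPM (287 to 303) in pachytene-like and later spermatocytes, while its relative Sdf2 was highest in Leydig-like cells at 95.1 CPM (91.1 to 99.5).

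**Figure D2:**
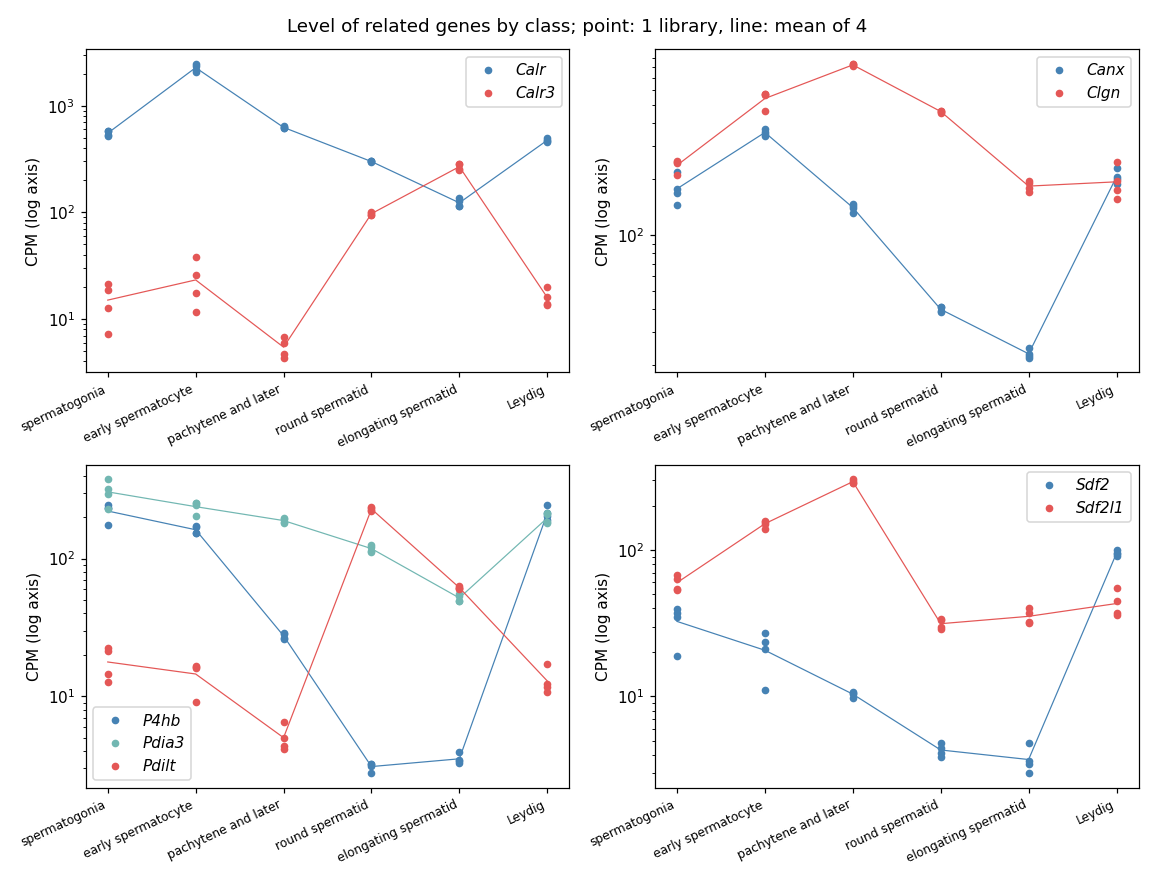
Level of Calr, Canx, P4hb, Pdia3 and Sdf2 and of their germ-cell or stage-bound relatives, in CPM on a log axis. The classes are 5 germ-cell classes and Leydig-like cells, with each point 1 library and each line the mean of 4. Canx is lower in each class after the early spermatocyte-like one, while Clgn peaks at 822 CPM in pachytene-like and later spermatocytes, and P4hb is lowest where Pdilt is highest.

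UMIs of the germ-cell relatives were also counted in somatic classes. Clgn was at 193 CPM (156 to 246) in Leydig-like cells and at 443 CPM (430 to 455) in macrophage-like cells. The 7 pachytene markers, which those cells should lack, summed to 671 to 952 CPM in Leydig-like and 1744 to 1915 CPM in macrophage-like cells, against 3522 to 3592 CPM in pachytene-like and later spermatocytes. Calr3 was at 71.5 CPM (58.0 to 77.4) in the Sertoli-like class beside the spermatid markers given above. RNA from outside the cell and RNA made in it cannot be told apart in these values.

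Among the degradation genes, Sel1l and Syvn1, the adaptor and the ubiquitin ligase of one membrane complex, were low in spermatids. Sel1l went from 37.2 CPM (35.3 to 38.9) in pachytene-like and later spermatocytes to 4.47 CPM (3.86 to 4.82) in round spermatid-like cells, and Syvn1 from 25.4 CPM (24.4 to 26.4) to 3.45 CPM (3.02 to 3.83). Edem1, a lectin that delivers misfolded glycoproteins, was highest in Leydig-like cells at 36.2 CPM (28.9 to 39.6). Herpud1, a scaffold of the same complex, broke the pattern: it was at 45.2 CPM (42.9 to 47.0) in round and 486 CPM (463 to 504) in elongating spermatid-like cells, 10.8 times as high. Among the 6 clusters of the elongating class its mean ranged from 174 CPM in cluster 21 to 842 CPM in cluster 5.

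Of the sensors, Ern1 and Eif2ak3 were scarce in later germ cells. Ern1 was at 27.2 CPM (20.9 to 35.2) in Leydig-like and 17.3 CPM (14.1 to 21.2) in early spermatocyte-like cells and at no more than 0.407 CPM in any library of the pachytene, round and elongating classes. Eif2ak3 stayed at or under 0.173 CPM in every library of those 3 classes. Unlike Ern1, it was already low in early spermatocyte-like cells, at 0.0347 times its level in Leydig-like cells. Its highest mean was 12.6 CPM in spermatogonia-like cells, where it overlapped fibroblast-like cells. Atf6 was at 45.0 CPM (21.8 to 69.1) in fibroblast-like, 42.7 CPM (39.3 to 45.6) in Leydig-like and 2.69 CPM (2.58 to 2.76) in elongating spermatid-like cells. Of the factors below them, Xbp1, Atf4 and Atf5 were highest in Leydig-like cells, at 49.7 CPM (42.3 to 56.2), 113 CPM (86.0 to 122) and 92.5 CPM (78.0 to 103), and all 3 overlapped fibroblast-like cells there. Ddit3, which encodes CHOP, differed from this: it peaked at 314 CPM (294 to 329) in pachytene-like and later spermatocytes. Its gene lies opposite to Mars, the methionyl-tRNA synthetase gene, and whether counting used the strand is not stated in the sources used here; 8 further genes of the 35 overlap a protein-coding gene on the other strand in the same way.

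Of the stress response targets, Ppp1r15a, which reverses the translation block, was highest in macrophage-like cells at 89.7 CPM (57.1 to 103). Chac1 was at 3.22 CPM (2.80 to 3.52) in round spermatid-like cells and at 0 in all fibroblast-like and macrophage-like libraries. Trib3 was highest in spermatogonia-like cells at 3.54 CPM, was 0 in 1 of those libraries, and passed the filter on low counts in no class tested. Asns was at 4.28 CPM (3.68 to 4.92) in pachytene-like and later spermatocytes, 83.0 CPM (77.6 to 88.3) in round and 193 CPM (177 to 207) in elongating spermatid-like cells. Over these 3 classes Asns and Calr3 thus shared an order that ran against that of Hspa5. In early spermatocyte-like cells they were at 13.9 CPM (3.90 to 22.7) and 23.2 CPM (11.7 to 37.8).

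For the diet comparison, UMIs were summed per library and class and each gene was tested with edgeR's quasi-likelihood test, with p-values adjusted over all genes of a class and called under 0.05. The log2 ratios are HFD over ND, and the CPM values beside them are scaled by the same fit. Of the 35 genes, 17 to 33 passed the filter on low counts in a class, which gave 245 tests. In 15 of them the gene was called, 9 higher and 6 lower in HFD, which involved 9 genes, where between 0.0% and 13.0% of all genes tested in a class were called. No gene was called in opposite directions. The calls lay in 4 classes.

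**Figure D3:**
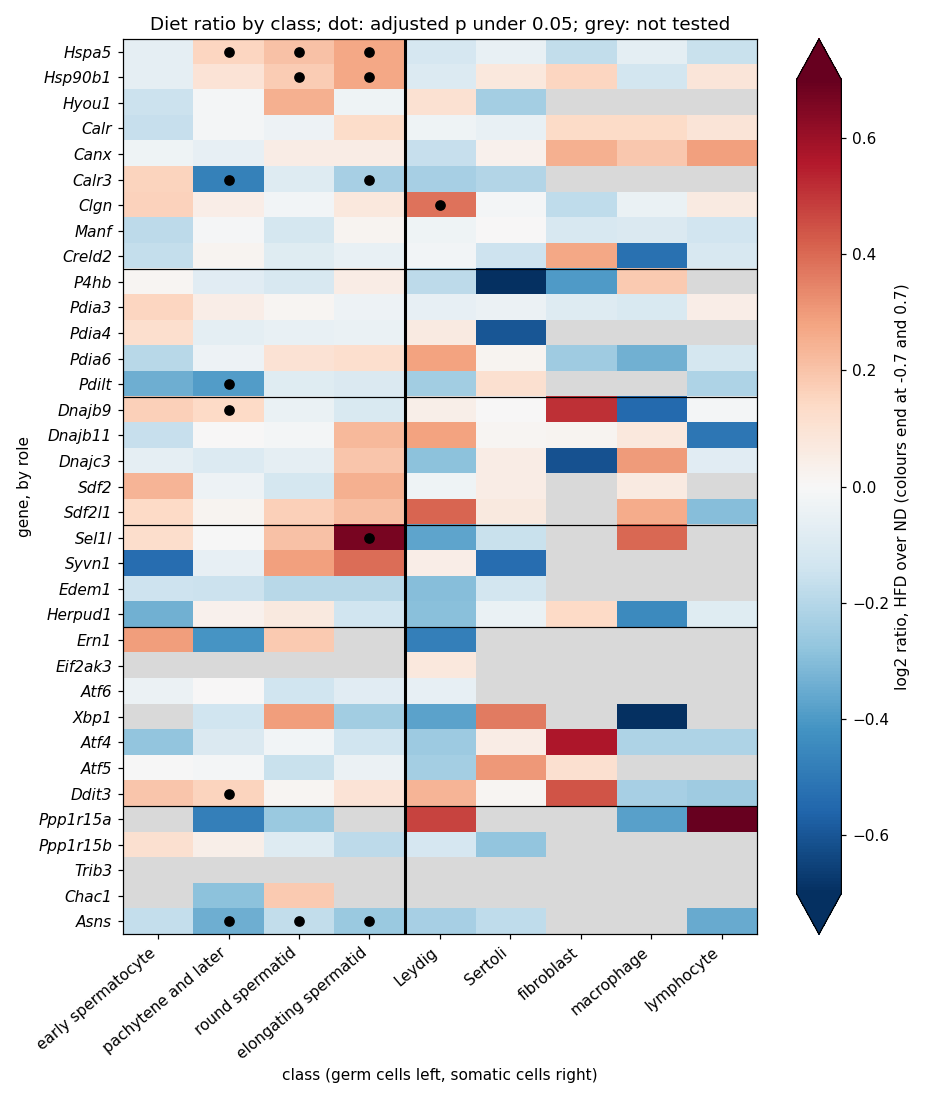
The log2 ratio of HFD over ND for the 35 genes by class, with colours that end at -0.7 and 0.7, black dots for the 15 calls and grey for genes not tested. Dots for Hspa5 run through 3 germ-cell classes in red and those for Asns through the same 3 in blue.

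BiP was called in 3 classes, the most of any chaperone in these tests; under the same mix of clusters, given below, it was called in 1. In elongating spermatid-like cells Hspa5 was at 95.5 and 97.3 CPM in HFD 1 and 2 and at 79.4 and 80.6 CPM in ND 1 and 2. Both HFD libraries were above both ND libraries, and the log2 ratio was 0.27 (SE 0.053; edgeR, adjusted p 0.00759). In round spermatid-like cells the 2 HFD values were 149 and 151 CPM and the 2 ND values 131 and 130.0 CPM, with a ratio of 0.21 (SE 0.031; edgeR, adjusted p 0.0126). In pachytene-like and later spermatocytes HFD had 499 and 491 CPM and ND 449 and 443 CPM, with a ratio of 0.15 (SE 0.032; edgeR, adjusted p 0.0073). The same gene was not called in early spermatocyte-like or Leydig-like cells, with ratios of -0.06 and -0.12.

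Hsp90b1, GRP94, was called in 2 of these classes. It was at 96.8 and 107 CPM in HFD and 79.4 and 89.4 CPM in ND in elongating spermatid-like cells (ratio 0.27, SE 0.063; edgeR, adjusted p 0.018). In round spermatid-like cells it was at 175 and 183 CPM in HFD and 162 and 154 CPM in ND (ratio 0.18, SE 0.036; edgeR, adjusted p 0.039). In pachytene-like and later spermatocytes it was at 774 and 792 CPM in HFD against 741 and 725 CPM in ND, without overlap, and missed the threshold (ratio 0.10; edgeR, adjusted p 0.0612). Calreticulin, which shares the promoter element and the level order, was called in no class, with ratios of 0.13, -0.04 and -0.01 in the elongating, round and pachytene classes. Sel1l, the degradation adaptor, rose in elongating spermatid-like cells from 3.57 and 3.59 CPM in ND to 5.19 and 6.20 CPM in HFD (ratio 0.67, SE 0.17; edgeR, adjusted p 0.0296), on 58 to 99 UMIs a library.

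The genes that fell were Asns, Calr3 and Pdilt. Clgn, the third germ-cell relative, was not called in germ cells, with ratios of 0.07, -0.02 and 0.05 in the elongating, round and pachytene classes (edgeR, adjusted p 0.416, 0.833 and 0.355). Asns was at 176 and 177 CPM in HFD and 210.2 and 212 CPM in ND in elongating spermatid-like cells (ratio -0.26, SE 0.046; edgeR, adjusted p 0.00344). It was at 79.3 and 76.9 CPM against 86.5 and 89.4 CPM in round spermatid-like cells (ratio -0.17, SE 0.037; edgeR, adjusted p 0.0452), and at 3.75 and 3.79 CPM against 4.69 and 4.86 CPM in pachytene-like and later spermatocytes (ratio -0.34, SE 0.10; edgeR, adjusted p 0.0391). Calr3 was at 247 and 248 CPM in HFD and 291 and 290 CPM in ND in the elongating class (ratio -0.23, SE 0.043; edgeR, adjusted p 0.00578). In the pachytene class it was at 4.42 and 4.69 CPM against 5.90 and 6.72 CPM (ratio -0.47, SE 0.098; edgeR, adjusted p 0.00703). In the round class Calr3 was not called, at 94.7 and 93.7 CPM in HFD against 99.3 and 101 CPM in ND. Pdilt fell in the pachytene class, where it is scarce, from 4.94 and 6.44 CPM in ND to 4.27 and 4.40 CPM in HFD (ratio -0.39, SE 0.12; edgeR, adjusted p 0.0397). In round spermatid-like cells, where it is highest, its ratio was -0.08 (edgeR, adjusted p 0.19). Asns, Calr3 and Pdilt were 19.4, 17.9 and 45.7 times as high in the round as in the pachytene class. For their calls in the pachytene class, RNA from outside the cell and RNA made in it cannot be told apart.

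**Figure D4:**
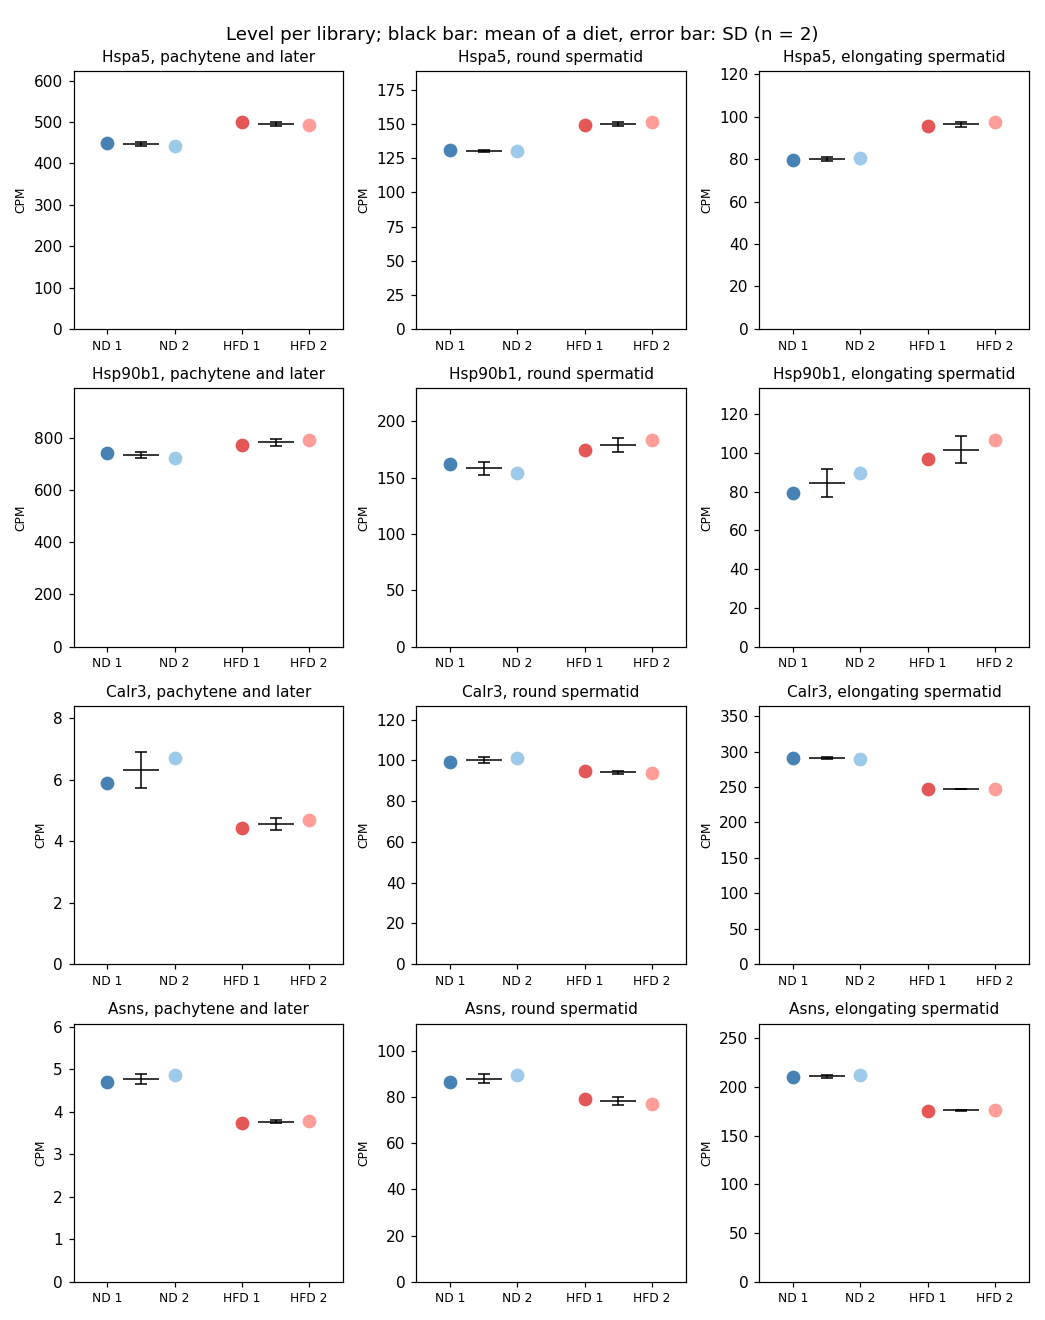
Level in CPM of Hspa5, Hsp90b1, Calr3 and Asns in each library, with 1 row of panels per gene and 1 column per germ-cell class, black bars for the mean of a diet and error bars for the SD (n = 2). Axes start at 0; HFD lies above ND for Hspa5 and Hsp90b1 and below it for Calr3 and Asns in each panel, of which Hsp90b1 in the pachytene and Calr3 in the round class were not called.

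The remaining calls were Ddit3 and Dnajb9 in pachytene-like and later spermatocytes and Clgn in Leydig-like cells. Ddit3 was at 336 and 326 CPM in HFD and 304 and 291 CPM in ND (ratio 0.15, SE 0.035; edgeR, adjusted p 0.0105). Dnajb9, a J-protein that returns IRE1 to rest, was at 140.2 and 142 CPM against 126 and 131 CPM (ratio 0.14, SE 0.036; edgeR, adjusted p 0.0197). Clgn was at 245 and 198 CPM in HFD and 162 and 178 CPM in ND in Leydig-like cells (ratio 0.38, SE 0.10; edgeR, adjusted p 0.0181).

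Against all genes, these counts were of mixed size. In elongating spermatid-like cells 5 of 30 of the genes were called, 3 higher and 2 lower, where 5.57% of all genes tested were called, 2.85% higher and 2.72% lower. In pachytene-like and later spermatocytes it was 6 of 33, 3 in each direction, against 13.0% of all genes, 7.19% higher and 5.8% lower. In round spermatid-like cells it was 3 of 33, 2 higher and 1 lower, against 1.54% of all genes, 0.845% higher and 0.698% lower. In Leydig-like cells it was 1 of 33, higher, against 4.71% of all genes, 2.24% higher and 2.46% lower. The median ratio of the genes was -0.01, -0.01, -0.02 and -0.06 in these 4 classes, against 0.01, -0.01, 0.00 and -0.01 over all genes. The members called went both ways in the germ-cell classes, so their median does not show whether they moved.

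In the other 5 classes 0 of the genes were called. In early spermatocyte-like cells 0 of 30 were called, against 0.0% of all genes, with 0 at an unadjusted p under 0.05 by edgeR, 0 by DESeq2 and 1 by limma. In Sertoli-like cells it was 0 of 29, against 0.00953% of all genes, with 1, 0 and 1 under that unadjusted p by the same tools. In macrophage-like cells it was 0 of 21, against 2.46% of all genes, with 2, 0 and 2. Fibroblast-like cells, with 0 of 17 against 0.0669%, and lymphocyte-like cells, with 0 of 19 against 0.0578%, had 0 under the unadjusted p by all 3 tools. DESeq2 and limma called 0 of the genes in each of these 5 classes. The SE of the Hspa5 ratio was 0.15 in macrophage-like, 0.13 in Sertoli-like and 0.089 in early spermatocyte-like cells, against 0.053 in elongating spermatid-like cells. A change as large as in the elongating class could have been missed in these classes, and the size that could be called was not tested.

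Stage markers moved in the same classes. In pachytene-like and later spermatocytes 4 of 7 markers of that stage were called higher in HFD and 7 of 7 round spermatid markers were called lower, with a median ratio of -0.37. The round spermatid markers summed to 79.8 and 82.9 CPM in HFD and 96.9 and 112 CPM in ND there. In elongating spermatid-like cells 2 of 7 pachytene markers were higher, and their sum was 784 and 817 CPM in HFD against 685 and 703 CPM in ND, while 2 of 7 elongating markers were lower. In round spermatid-like cells 2 of 7 pachytene markers were higher and 1 of 7 round markers lower. None of the 7 pachytene, 7 round or 7 elongating markers was at 0 in these classes. Of the genes that rose in spermatids, Hspa5, Hsp90b1 and Sel1l were 5.32, 8.13 and 7.99 times as high in pachytene-like and later spermatocytes as in elongating spermatid-like cells. Asns and Calr3, which fell, were 45.1 and 49.2 times as high in the elongating class. The part of the stage markers in these results was not tested. Each library was also given the same mix of clusters within a class, with limma on log2(CPM + 1). This needs at least 2 clusters and so could not be run for Clgn in Leydig-like cells. Of the other 14 calls, 4 were left: Hspa5, Hsp90b1 and Sel1l in the elongating class and Calr3 in the pachytene class. Asns and Pdilt in the pachytene class were not called by limma without the mix either. Under that mix the ratio of Asns in the elongating class was -0.11 and that of Calr3 there -0.09 (limma, adjusted p 0.153 and 0.194), against -0.26 and -0.23 by limma without it. In the pachytene class Hspa5, Ddit3 and Dnajb9 were at 0.06, 0.08 and 0.03 (limma, adjusted p 0.328, 0.266 and 0.698), against 0.15, 0.15 and 0.14. In the round class Hspa5 and Hsp90b1 were both at 0.12 (limma, adjusted p 0.104 and 0.158), against 0.20 and 0.18. The other 3 lost calls had ratios of about the same size with and without the mix. Asns was at -0.165 in the round class and -0.298 in the pachytene class, and Pdilt at -0.329 there (limma, adjusted p 0.0573, 0.127 and 0.166), against -0.169, -0.276 and -0.316.

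Other markers moved beside the Leydig result. In Leydig-like cells 3 of 7 pachytene markers were higher in HFD, with sums of 952 and 912 CPM against 671 and 717 CPM, 3 of 6 Leydig markers were lower, and 8 of 11 dissociation and immediate early genes were called, 6 higher and 2 lower. Those 11 genes summed to 2037 and 2073 CPM in HFD and 1730 and 1475 CPM in ND. None of the 7 pachytene and 6 Leydig markers was at 0. The part of these genes in the ratio of Clgn was not tested. Without HFD 1 its ratio was 0.21 (edgeR, adjusted p 0.519) and without ND 1 it was 0.32 (edgeR, adjusted p 0.146). It was 0.51 with a mitochondrial limit of 10%, 0.59 with finer clusters (Leiden resolution 2) and 0.56 with the members used to cluster, and was called in none of them (edgeR, adjusted p 0.187, 0.157 and 0.164). DESeq2 gave an adjusted p of 0.174, and edgeR without the filter on low counts one of 0.0619.

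Several calls were lost when 1 library was left out, most of them with a ratio of about the same size. Without HFD 1 or HFD 2, 7 and 8 of the tests were called, and without ND 1 or ND 2, 21 and 15. Hspa5 in the elongating class missed the threshold without HFD 2 (ratio 0.26; edgeR, adjusted p 0.0667) and in the pachytene class without HFD 1 (ratio 0.15; edgeR, adjusted p 0.0698). All round spermatid calls were lost without HFD 1 and without HFD 2, where the smallest adjusted p was 0.14 (edgeR, Hspa5 without HFD 1). The ratios there were 0.22 and 0.20 for Hspa5, 0.22 and 0.15 for Hsp90b1 and -0.19 and -0.15 for Asns. Sel1l was lost without HFD 2 (ratio 0.54; edgeR, adjusted p 0.281), and Hsp90b1 in the elongating class without HFD 2 and without ND 1 (ratios 0.20 and 0.18; edgeR, adjusted p 0.212 and 0.0632). In the pachytene class Ddit3 was lost without HFD 1 (ratio 0.14; edgeR, adjusted p 0.107), and Dnajb9 without HFD 1 and without HFD 2 (0.15 and 0.13; edgeR, adjusted p 0.0798 and 0.122). Asns there was at -0.33, -0.35 and -0.32 without HFD 1, HFD 2 and ND 2 (edgeR, adjusted p 0.196, 0.132 and 0.0859). The ratio of Pdilt did depend on the library: it was -0.19 without ND 2 (edgeR, adjusted p 0.369) and -0.57 without ND 1, where it was called, and -0.365 without HFD 1 (edgeR, adjusted p 0.1). Asns and Calr3 in the elongating class and Calr3 in the pachytene class kept their calls whichever library was left out.

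Other settings ended calls as well. With doublets kept, 4 of the 5 elongating calls were lost: Asns at -0.21, Calr3 at -0.19, Hsp90b1 at 0.245 and Sel1l at 0.50 (edgeR, adjusted p 0.096, 0.139, 0.0522 and 0.0866). Asns in the round class was lost there too (-0.14; edgeR, adjusted p 0.0924). Dnajb9 in the pachytene class was at 0.09 with doublets kept, 0.04 with a mitochondrial limit of 10%, 0.05 with finer clusters and 0.08 with the members used to cluster (edgeR, adjusted p 0.11, 0.545, 0.404 and 0.13). It was lost with plain library totals as well (0.10; edgeR, adjusted p 0.0781). With the mitochondrial limit of 10% Hspa5 in the pachytene class was at 0.10 and Asns in the round class at -0.11 (edgeR, adjusted p 0.0666 and 0.169). Hsp90b1 in the round class (0.168; edgeR, adjusted p 0.076) and Asns in the pachytene class (-0.316; edgeR, adjusted p 0.0907) were lost under that limit too, while Asns in the elongating class was at -0.40 and called. Pdilt and Asns in the pachytene class were not called by DESeq2 (adjusted p 0.117 and 0.182) or limma (adjusted p 0.0622 and 0.0526). Asns was also lost in the pachytene class with finer clusters (edgeR, adjusted p 0.086), and in the round class with DESeq2 (adjusted p 0.06) and with plain library totals (edgeR, adjusted p 0.0598). Without the filter on low counts 9 of the 15 calls were lost, and the 5 of the elongating class and Hspa5 in the pachytene class were kept. No ratio of the 15 changed direction under any of these settings.

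Testing the 16 germ-cell clusters with enough cells one by one, a setting chosen after the data were seen, gave 7 calls in 429 tests of the genes, against 1.09% of all tests. All 7 lay in clusters 0, 1 and 5, where calls were more frequent over all genes. There 371 of 8492, 636 of 10551 and 203 of 7240 genes were called. Hspa5 was called higher in clusters 0 and 1, both of elongating spermatid-like cells, with ratios of 0.36 and 0.35, and was above 0 in 13 of 16 clusters. In cluster 0 it was at 139 and 135 CPM in HFD and 106 and 90.4 CPM in ND. Hsp90b1 was called in the same clusters, with 0.37 and 0.28, and was above 0 in 14 of 16. Herpud1, which was not called in the class, was lower in clusters 0 and 5, where its level is highest, at 813 and 756 CPM in HFD against 909 and 892 CPM in ND in cluster 5 (ratio -0.31, SE 0.066). Syvn1 was higher in cluster 1, at the low level of 4.60 and 4.79 CPM in HFD against 2.16 and 1.66 CPM in ND. Its adjusted p was close to the threshold (edgeR, adjusted p 0.0464). Asns was below 0 in all 14 and Calr3 in all 15 clusters in which they could be tested, and neither was called in any of them. In cluster 15 the ratio of Calr3, -0.00044, was next to 0, with an SE of 0.053. These clusters share libraries, so their signs are not separate evidence.

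**Figure D5:**
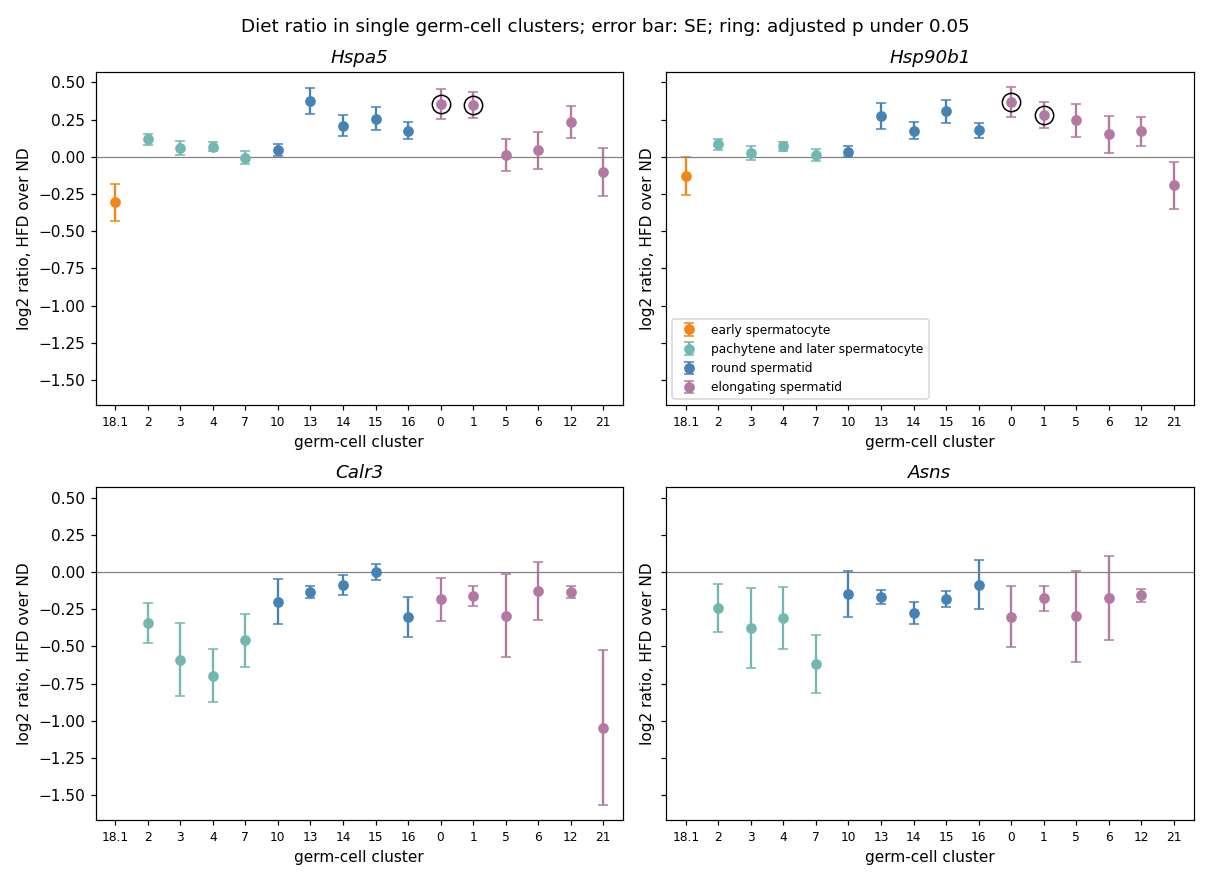
The log2 ratio of HFD over ND for Hspa5, Hsp90b1, Calr3 and Asns in each tested germ-cell cluster, ordered by class, with error bars for the SE and rings for adjusted p under 0.05. Hspa5 and Hsp90b1 are ringed in clusters 0 and 1 only, and all points of Calr3 and Asns lie at or below 0.

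Whether the diet ratio differed between classes was tested as an interaction in 36 pairs of classes, in a joint fit of each pair that filters and scales both classes together. A difference from it is therefore not equal to that of the separate class ratios given above. It was called in 7 of 1131 tests of the genes, against 0.157% of all tests. The ratio of Hspa5 was lower in Leydig-like than in pachytene-like and later spermatocytes by a difference of -0.36 (SE 0.078; edgeR, adjusted p 0.0145) and lower than in round spermatid-like cells by -0.28 (SE 0.074; edgeR, adjusted p 0.0495). Between early spermatocyte-like and elongating spermatid-like cells the differences were -0.40 for Hspa5, -0.39 for Hsp90b1 and -0.35 for Calr (edgeR, adjusted p 0.0282, 0.0481 and 0.0481). Sel1l differed by 0.97 between elongating spermatid-like and Leydig-like cells, and Clgn by 0.44 between Leydig-like and round spermatid-like cells (edgeR, adjusted p 0.016 and 0.022). Without HFD 1 or without HFD 2 none of the tests was called. The difference of Hspa5 between Leydig-like cells and pachytene-like and later spermatocytes was -0.195 with plain library totals and -0.211 without ND 1 (edgeR, adjusted p 0.283 and 0.426). That of Clgn was 0.289 without HFD 1 and 0.258 without ND 1 (edgeR, adjusted p 0.763 and 0.51), and missed the threshold with plain totals (0.414; edgeR, adjusted p 0.0537). Between early spermatocyte-like and elongating spermatid-like cells the differences of Hspa5, Hsp90b1 and Calr were -0.242, -0.255 and -0.231 without HFD 2 and -0.325, -0.263 and -0.200 without ND 2, none of them called. DESeq2 did not call those of Hsp90b1 and Calr (adjusted p 0.218 and 0.0642), and that of Hspa5 was lost without ND 1 (edgeR, adjusted p 0.118). That of Sel1l was lost without ND 2 (1.04; edgeR, adjusted p 0.0748).

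Among the 35 genes, stress sensors and factors other than Ddit3 were called in no class. In Leydig-like cells Ern1 was at 20.8 and 25.6 CPM in HFD and 28.4 and 35.8 CPM in ND (ratio -0.48, SE 0.21; edgeR, adjusted p 0.223), and Xbp1 was at 45.2 and 42.7 CPM against 56.9 and 57.1 CPM (ratio -0.37, SE 0.16; edgeR, adjusted p 0.183). Atf4 had ratios of -0.26 in Leydig-like cells and -0.10 in pachytene-like and later spermatocytes, and Atf6 ratios of -0.06 and 0.00. Eif2ak3 passed the filter in Leydig-like cells only, with 14.1 and 8.53 CPM in HFD around 9.79 and 11.8 CPM in ND. The splicing of Xbp1 is not seen in these counts. Canx, a relative of Clgn, had ratios of 0.05, 0.05 and -0.06 in the elongating, round and pachytene classes. P4hb and Pdia3, relatives of Pdilt, had ratios between -0.11 and 0.05 there.

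In the whole testis, summed over all kept cells, 17 of 34 of the genes were called, 10 higher and 7 lower, against 34.4% of all genes, 15.4% higher and 19.0% lower. Here fewer cells of a type and less RNA per cell cannot be told apart. Pachytene-like and later spermatocytes made up 26.1% and 31.1% of the cells in HFD and 22.7% and 22.7% in ND, and round spermatid-like cells 20.7% and 20.7% against 25.7% and 26.0%. The chaperones Hspa5 and Hsp90b1, with ratios of 0.25 and 0.26, and Sdf2l1 with 0.27, were higher. Sdf2l1 was at 165 and 167 CPM in HFD and 138 and 137 CPM in ND in the whole testis, while in its main class, pachytene-like and later spermatocytes, the values were 299.9 and 289 CPM against 299 and 284 CPM. Within classes it was called in none. Its HFD values were above its ND values without overlap in the elongating, round, Leydig-like, early spermatocyte-like and macrophage-like classes. The ratios there were 0.21, 0.17, 0.41, 0.14 and 0.26 (edgeR, adjusted p 0.0821, 0.0891, 0.181, 0.82 and 0.906). Only classes with that order are listed, and they share the same libraries. The share of all genes with that order was not counted. Ddit3 (0.23), Hyou1 (0.21), Sel1l (0.19), Syvn1 (0.17), Dnajb11 (0.17), Pdia6 (0.13) and Clgn (0.12) were higher too. Ern1 (-0.56), Asns (-0.40), Edem1 (-0.38), Atf5 (-0.38), Pdilt (-0.35), Calr3 (-0.34) and Creld2 (-0.14) were lower. Ern1 was not called by DESeq2 (adjusted p 0.0844) and was at -0.248 by limma. Ern1, Edem1 and Atf5 have their highest level in Leydig-like cells, which made up 1.86% and 2.03% of the cells in HFD and 2.81% and 2.98% in ND. Edem1 and Atf5 were also 3.51 and 10.3 times as high in round spermatid-like cells as in pachytene-like and later spermatocytes. The share of round spermatid-like cells was lower in HFD as well, as given above. The part of either class in these ratios was not tested. Without HFD 1 the calls of Clgn, Creld2, Ern1 and Pdia6 were lost, and without HFD 2 those of Clgn, Creld2, Dnajb11, Hyou1, Pdia6, Sel1l and Syvn1, which left 13 and 10 calls. Without ND 1 those of Clgn, Dnajb11, Pdia6 and Sel1l were lost, with ratios of 0.081, 0.104, 0.075 and 0.138. Without ND 2 that of Syvn1 was lost, at 0.170. Of the calls lost without HFD 2, Sel1l moved furthest, to a ratio of 0.122.

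Other genes of the pathway, 53 in all, were called at shares near or below those of all genes. In pachytene-like and later spermatocytes 7 of 48 were called, 5 higher and 2 lower, against 13.0% of all genes. Eif2ak1, the haem-regulated kinase of the same translation block, was at 36.2 and 36.7 CPM in HFD and 33.5 and 31.5 CPM in ND (ratio 0.16), and Man1b1, which trims glycoproteins for degradation, at 40.8 and 40.6 CPM against 36.8 and 36.2 CPM (ratio 0.16). Creb3l4, an ER-bound transcription factor of spermatids, was lower (ratio -0.29). In elongating spermatid-like cells 2 of 40 were called, against 5.57% of all genes: Selenos, a partner of the degradation channel, was higher (ratio 0.20) and Creb3l4 lower, at 398 and 393 CPM in HFD against 458 and 448 CPM in ND (ratio -0.20). In Leydig-like cells 2 of 49 were called, both lower, against 4.71% of all genes, while limma called 2 and DESeq2 called 0. Eif2ak2, the double-stranded RNA kinase that interferons raise, was at 26.3 and 30.2 CPM in HFD and 51.3 and 65.7 CPM in ND (ratio -1.05), and Sec61b, a translocation channel subunit, had a ratio of -0.29. In round, early spermatocyte-like, Sertoli-like, macrophage-like, fibroblast-like and lymphocyte-like cells 0 were called, with 8, 2, 1, 3, 1 and 0 of them at an unadjusted p under 0.05 by edgeR in this order and 0 called by DESeq2 or limma. In the whole testis 15 of 53 were called, 6 higher and 9 lower, against 34.4% of all genes, led among genes of at least 20 CPM by Man1b1 (0.37) and Eif2ak1 (0.30) upward and by Creb3l4 (-0.36) and Tmbim6 (-0.16) downward. Tmbim6, Bax inhibitor 1, was higher in pachytene-like and later spermatocytes (ratio 0.14).

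The 6 genes listed here as clients of the germ-cell chaperones, ADAM genes with Tex101 and Ly6k, were called in both directions. Whether each is a client was not tested. In pachytene-like and later spermatocytes 4 of 6 were called, against 13.0% of all genes, and DESeq2 called 3. The stage markers moved in this class, as given above, and their part in these values was not tested. Adam1b and Adam3, sperm surface proteins of the ADAM family, were higher, with Adam3 at 515 and 512 CPM in HFD and 458 and 458 CPM in ND (ratio 0.16). Tex101, a surface protein of germ cells, was lower, at 323 and 350 CPM against 417 and 395 CPM (ratio -0.27), and so was its partner Ly6k (ratio -0.12). Tex101 is among the top 10 genes of cluster 3. That cluster held 304 of 3423 and 371 of 4183 cells of the class in HFD 1 and 2. In ND 1 and 2 it held 365 of 3282 and 377 of 3122. Values under the same mix of clusters are not given for these 6 genes. In round and elongating spermatid-like cells 0 of 6 were called, with 2 and 1 under an unadjusted p of 0.05 by edgeR and 0 called by DESeq2. In macrophage-like cells 1 of 5, Tex101, was called higher, against 2.46% of all genes, but at 74.2 CPM in HFD 1 it lay below both ND libraries, at 99.1 and 91.8 CPM, and only HFD 2, at 372 CPM, was above them. That value belongs to a germ-cell gene in a somatic class. DESeq2 and limma called 0 of the 5 there.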

How the data were processed

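Testis cells of 2 HFD and 2 ND libraries were used as UMI counts per gene and barcode, raw counts as deposited by the authors per the file headers and values, whose matrix header names 10x software 3.0.2. The build is mm10 per the submitters' processing notes, and all 55450 identifiers and symbols matched GENCODE M21. The aligner and the use of strand are not given in the sources used here. Depth was 143748262 to 154221188 UMIs a library.

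Filters of 200 detected genes as the minimum and 20% mitochondrial UMIs as the maximum removed 13 to 42 barcodes a library, and 449 to 890 Scrublet doublets a library were removed (expected rate 0.1; scanpy 1.11.5). Cells were clustered (2000 variable genes, 30 components, 15 neighbours, Leiden resolution 1; igraph 0.11.9) without the 35 genes and 53 further pathway genes. Clusters were named from fixed markers; unnamed cells entered the whole testis only.

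UMIs were summed per library and class (at least 50 cells in each library) and tested in R 4.3.3 with edgeR 4.0.16 (filterByExpr, TMM, quasi-likelihood test, Benjamini-Hochberg adjustment over all genes, threshold 0.05), as were interactions of class and diet, whose fits treat the sums of a library as independent. The steps were tested on simulated data. Alternatives were DESeq2 1.42.0, limma 3.58.1 on log2(CPM + 1), plain totals, no filter, a replicate block, libraries left out, and other cell filters and clusterings.

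The members, gene lists and tests were chosen with earlier results of these data known. Named are members called in a class, relatives of the germ-cell chaperones, sensors and factors. Of the other pathway genes, up to 2 a class and direction with at least 20 CPM are named. One gene that this rule names is not reported here.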

Additional observations from a re-analysis of the deposited data

Results flagged for a closer look

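In 7 tests the change of a gene between the diets differed between 2 classes of cells, by an interaction term in edgeR with Benjamini-Hochberg adjustment. The log2 ratio of Hspa5 in Leydig-like cells minus that in pachytene-like and later spermatocytes was -0.357. It differed by -0.283 between Leydig-like and round spermatid-like cells and by -0.398 between early spermatocyte-like and elongating spermatid-like cells. For Calr and Hsp90b1 the difference between the last pair of classes was -0.352 and -0.394. For Sel1l it was 0.965 between elongating spermatid-like and Leydig-like cells, and for Clgn 0.441 between Leydig-like and round spermatid-like cells. Calr was called in neither of its classes, where its ratios in the separate fits were -0.16 and 0.13; the interaction comes from a joint fit of both classes with its own scaling, so it is not the difference of those ratios. Early spermatocyte-like cells numbered 128 to 198 a library. No call was left without HFD 1 or without HFD 2. The difference of Hspa5 between Leydig-like cells and pachytene-like and later spermatocytes was -0.195 with plain library totals, and was then not called.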

How the results depend on the processing

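The 15 calls within classes became 11 with DESeq2, 13 with limma, 18 with plain library totals and 7 without a filter on low counts. The counts with DESeq2, with plain totals and without the filter include tests that were not among the 15. DESeq2 called 5 genes in the elongating class, but gave no result for Sel1l there. With the same mix of clusters in each library, which could be run in the 4 germ-cell classes and not for the Leydig-like call, 4 calls were made. Tests of germ-cell clusters one by one, a setting chosen after seeing the data, made 7 calls of another set of 429 tests, Herpud1 and Syvn1 among them. With 1 library left out the calls within classes ranged from 7 to 21. In the whole testis the 17 calls became 11 without the filter and ranged from 10 to 18 with 1 library left out. The 7 interactions became 11 with DESeq2 and 14 with plain library totals, and ranged from 0 to 16 with 1 library left out; a diet with 1 library is then assumed to vary like the other. The fit without the filter tests more genes. The cause of the shifts, that one among them, was not tested. With a replicate block the counts were 17 within classes, 17 in the whole testis and 9 interactions, but the labels do not say that same-numbered libraries belong together. Correlations of same-numbered deviations ran from -0.033 to 0.0955. They cannot decide this, because the noise of low counts also brings them near 0. Of the single results under an alternative, 329 kept direction and call, 114 missed the threshold in the same direction and 0 reversed. The smaller classes ranged from fibroblast-like cells with 54 to 75 a library to early spermatocyte-like cells with 128 to 198, and whether their number set the count of calls was not tested. Sel1l in elongating spermatid-like cells rests on 58 to 99 UMIs a library.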

Other observations

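Between 3222 and 3858 cells a library fell in clusters left unnamed, and these entered no class. Nearly all were in clusters 8, 9 and 11, nearest to the pachytene markers but with medians of 1832, 1802 and 1749 UMIs a cell and 0 of those markers among their top 10 genes. Their low depth stands beside the values below, and its part in them was not tested. Hspa5 was at 642 and 666 CPM in HFD 1 and 2 and at 660 and 633 CPM in ND 1 and 2, so that the diets overlapped. Clgn was at 817 and 830 CPM in HFD and 839 and 851 CPM in ND. Herpud1, the degradation scaffold, was at 91.1 and 91.0 CPM in HFD and 75.6 and 81.5 CPM in ND, without overlap and without a test. Creld2, a secreted ER stress-induced protein, was at 239 and 237 CPM in HFD and 262 and 258 CPM in ND, again without overlap and without a test. The share of all genes without overlap in these cells was not counted. Spermatogonia-like cells, with 47 to 69 a library, were too few in 2 libraries for the limit of 50 and were not tested either.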
